A study of Mus musculus with 24 samples.

Results

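The genes described here are 10 genes that attach the small protein SUMO to other proteins or take it off again: the 5 proteases Senp1, Senp2, Senp3, Senp5 and Senp6, the 4 ligases Pias1, Pias2, Pias3 and Pias4, and Uba2, a subunit of the activating enzyme. They were chosen by name, and each was read from its brightest probe set among those that the array annotation gives to 1 gene symbol. Of the 10, 9 had such a probe set, among 19938 genes that had one on the array, and each of the 9 had exactly 1. No probe set carried the symbol Uba2 in the annotation table used, and Uba2 was not analysed here.

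The levels were measured in liver RNA of 24 male mice, 8 per genotype, killed at 24 weeks of age on standard chow. The alb-SREBP-1a∆P mice carry, on the C57Bl6 background, a transgene for the N-terminal, transcriptionally active part of human SREBP-1a with an HA tag, in which the sites phosphorylated by MAP kinases are mutated. The alb-SREBP-1a mice carry the same construct with those sites intact, and the C57Bl6 mice are the wild-type controls. The promoter of both transgenes is that of albumin, which drives expression in hepatocytes, and each mouse gave 1 array of whole liver tissue. Whole tissue was measured, so fewer cells of a type and less RNA per cell cannot be told apart.

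SUMO is joined to lysines of target proteins by a chain of enzymes. An activating enzyme made of Sae1 and Uba2 charges SUMO, and ligases such as the PIAS proteins help it onto the target. SENP proteases trim the SUMO precursors and cut SUMO off its targets, so that modification is a cycle. Many targets are transcription factors and their partners, and SREBPs are among the proteins known to carry SUMO.

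Levels are RMA values on the log2 scale, and a difference of 1 is a doubling of signal. A member is said to have risen or fallen where the adjusted p of limma, corrected over all 35556 probe sets, was under 0.05. Of the 9 measured members, 5 fell and 0 rose in alb-SREBP-1a∆P against C57Bl6 livers, against 20.2% of all probe sets called lower and 27.0% called higher. Set against alb-SREBP-1a livers, 7 fell and 0 rose in alb-SREBP-1a∆P, against 21.4% called lower and 22.8% called higher. In alb-SREBP-1a against C57Bl6 livers, 1 member rose and 1 fell, against 6.77% called higher and 3.98% called lower. The median difference of the members was -0.41 in alb-SREBP-1a∆P against C57Bl6, where that of all probe sets was 0.11. It was -0.35 in alb-SREBP-1a∆P against the alb-SREBP-1a livers, where that of all probe sets was 0.08, and 0.06 in alb-SREBP-1a against C57Bl6, where that of all probe sets was 0.01. The comparisons share their groups, so a member that is low in alb-SREBP-1a∆P counts in both comparisons of that genotype.

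The members are all in the brighter part of the array, and in alb-SREBP-1a∆P livers such probe sets were shifted downwards as a body. When all probe sets were ordered by mean level over the 24 arrays and cut into 10 equal classes, those of Senp1, Senp2 and Pias3 lay in class 7, those of Senp5, Pias2 and Pias4 in class 8, and those of Senp3, Senp6 and Pias1 in class 9. The median difference of alb-SREBP-1a∆P against C57Bl6 was -0.04 in class 7, -0.23 in class 8 and -0.29 in class 9, and 28.5%, 46.1% and 53.3% of these probe sets were called lower. Set against alb-SREBP-1a, the medians of alb-SREBP-1a∆P were -0.08, -0.27 and -0.31, and 29.3%, 51.6% and 62.3% were called lower. The counts of members that fell are therefore to be read against these shares. The values of a single array also spread less in alb-SREBP-1a∆P (SD 2.02 to 2.09 over all probe sets) than in alb-SREBP-1a (2.14 to 2.23) and C57Bl6 (2.18 to 2.25), and the part of this in the members' differences was not tested.

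A few arrays stood apart. Replicate 5 of alb-SREBP-1a was the lowest of its group for 7 of the 9 members, with a mean over the members of 6.97 where the median of its group was 7.37. Replicate 5 of C57Bl6 was the lowest of its group for 5 members. Replicate 4 of alb-SREBP-1a∆P lay at 15.7 on the first principal component of all probe sets, where the other arrays of that genotype lay at 55.0 or above. Without replicate 5 of alb-SREBP-1a, the members called were 7 in alb-SREBP-1a∆P against the alb-SREBP-1a livers and 2 in alb-SREBP-1a against C57Bl6, the same numbers as with it. In alb-SREBP-1a against C57Bl6 the differences of Senp1, Senp2, Senp6 and Pias2, which were not called with or without that array, were 0.12, -0.06, -0.04 and -0.08 without it and 0.06, -0.13, -0.09 and -0.12 with it. Without replicate 4 of alb-SREBP-1a∆P, 5 members were called against C57Bl6 and 6 against alb-SREBP-1a, where Senp3 was lost.

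Promoters of members on which the results turn are given first, since the transgene codes for a transcription factor. Windows of 300 bases ran from 250 before to 50 after the annotated start, read 5′ to 3′ on the strand of the gene. From RefSeq's GRCm38.p6 annotation, 11 windows of 8 of the 10 members were read. Those read hold none of Pias2 and Pias4, so neither gene was searched for motifs. Capitals mark matches, on either strand, to the motifs searched: the E-box CACGTG, the sterol regulatory element TCACNCCAC, the nuclear receptor half-site AGGTCA, the CCAAT box (CCAAT), the GC box GGGCGG, the ETS core CGGAAG and the TATA box (TATAAA). Of the 4 windows shown, that of Senp2 belongs to the member with the largest fall in alb-SREBP-1a∆P livers, those of Senp5 and Senp6 to proteases without overlap between alb-SREBP-1a∆P and C57Bl6 livers, and that of Pias1 to the ligase that rose in alb-SREBP-1a livers.
Senp2, chr16:22009234-22009533, plus strand: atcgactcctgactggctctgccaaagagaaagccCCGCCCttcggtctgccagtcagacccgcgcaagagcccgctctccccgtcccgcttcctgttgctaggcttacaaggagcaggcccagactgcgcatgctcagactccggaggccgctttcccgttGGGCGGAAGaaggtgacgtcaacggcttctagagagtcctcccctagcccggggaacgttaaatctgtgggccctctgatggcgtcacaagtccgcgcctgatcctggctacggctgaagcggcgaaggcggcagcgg
Senp5, chr16:32003238-32003537, minus strand: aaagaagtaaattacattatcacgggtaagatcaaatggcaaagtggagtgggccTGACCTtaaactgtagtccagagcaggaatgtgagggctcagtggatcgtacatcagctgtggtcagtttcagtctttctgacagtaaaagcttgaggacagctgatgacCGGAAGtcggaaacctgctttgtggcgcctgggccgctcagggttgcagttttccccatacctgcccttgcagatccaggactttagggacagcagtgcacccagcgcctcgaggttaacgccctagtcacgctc
Senp6, chr9:80066653-80066952, plus strand: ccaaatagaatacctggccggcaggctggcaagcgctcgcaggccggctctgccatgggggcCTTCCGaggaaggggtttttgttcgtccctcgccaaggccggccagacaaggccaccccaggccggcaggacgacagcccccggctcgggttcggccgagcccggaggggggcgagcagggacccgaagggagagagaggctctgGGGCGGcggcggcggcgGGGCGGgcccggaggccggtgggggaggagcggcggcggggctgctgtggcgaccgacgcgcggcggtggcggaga
Pias1, chr9:62980830-62981129, minus strand: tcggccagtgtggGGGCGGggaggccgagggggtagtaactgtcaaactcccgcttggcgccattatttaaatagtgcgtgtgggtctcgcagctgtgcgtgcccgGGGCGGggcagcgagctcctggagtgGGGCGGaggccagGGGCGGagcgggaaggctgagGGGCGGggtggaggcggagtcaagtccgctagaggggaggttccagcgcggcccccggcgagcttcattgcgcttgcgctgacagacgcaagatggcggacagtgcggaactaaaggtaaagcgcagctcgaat

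The E-box and the sterol regulatory element, both known binding sequences of SREBPs, had 0 matches in the 11 windows, where 7.15% and 1.24% of 32851 windows of the same length held them. The ETS core was present in a window of Senp1, Senp2, Senp3, Senp5, Senp6 and Uba2, which makes 7 of 11 windows, and 16.9% of all windows held it. In the Senp2 window it overlaps a GC box, as the run of capitals near its middle shows. GC boxes were found in 7 of 11 windows, of Pias1, Pias3, Senp2, Senp3, Senp6 and Uba2, where 35.7% of all windows held one, with 5 each in the Pias1 window and in 1 of the 2 Pias3 windows. The nuclear receptor half-site matched Senp1 and Senp5 in 3 windows (16.3% of all windows), the CCAAT box Pias3 and Senp3 in 2 windows (37.4%), and the TATA box matched 0 (13.6%). These are matches of letters, and binding was not measured.

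Among the ligases, Pias1 was the one that rose in alb-SREBP-1a livers. Its level was 8.01 at the lowest, 8.50 at the median and 8.72 at the highest in alb-SREBP-1a, and 7.84, 8.10 and 8.27 in C57Bl6. Thus 6 of the 8 alb-SREBP-1a livers lay above every C57Bl6 liver. The difference was 0.39 ± 0.10 (SE, limma adjusted p = 0.0217), a level of 131% of that in C57Bl6, with adjusted p from 0.00405 to 0.0524 over 12 alternative settings. In alb-SREBP-1a∆P the lowest, median and highest were 7.70, 7.95 and 8.23, and 5 of these 8 livers lay below every alb-SREBP-1a liver. Pias1 fell there by 0.50 ± 0.11 against alb-SREBP-1a (limma adjusted p = 0.00213, and from 0.000387 to 0.118 over 13 alternative settings). Against C57Bl6 the difference was -0.11 ± 0.09, with a 95% interval from -0.31 to 0.09 (limma adjusted p = 0.339), and its sign changed with the scaling of the arrays. The order of the means was thus alb-SREBP-1a, C57Bl6, alb-SREBP-1a∆P, with the last pair not separated by the test.

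**Figure D1:**
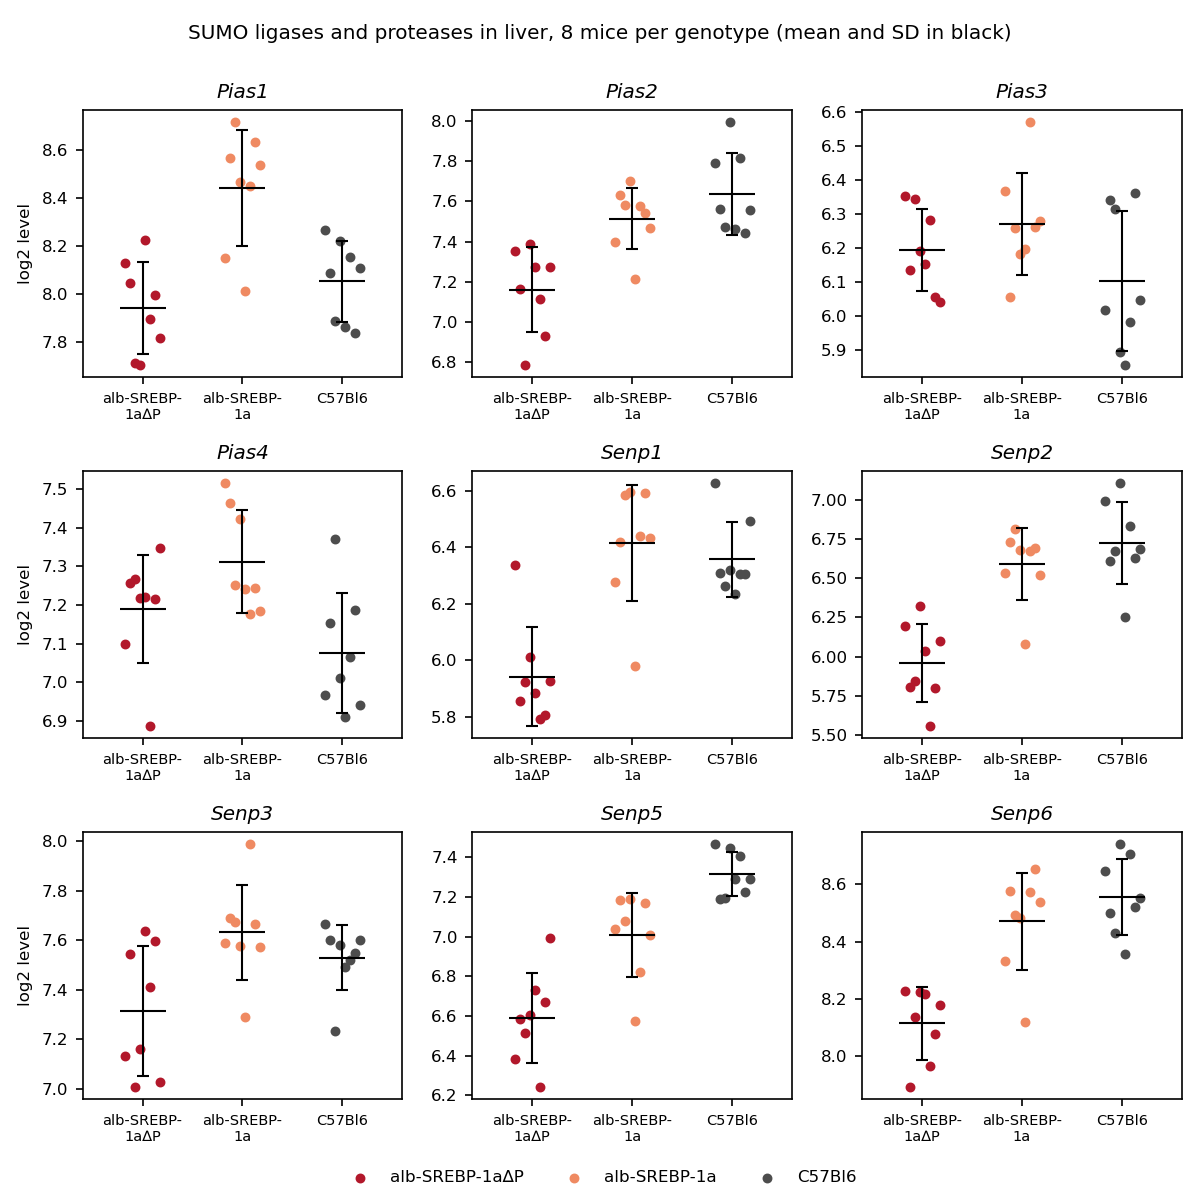
Log2 level (vertical axes, each with its own range) of the 9 measured genes in each of 24 livers, by genotype, with points in the order of the replicate number and the mean and SD in black. Senp5 shows 3 steps, with all 8 alb-SREBP-1a livers at or below 7.19 and all 8 C57Bl6 livers above that, and Pias1 stands highest in alb-SREBP-1a.

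Pias2, a coregulator of the androgen receptor, showed another order. It measured 6.79 at the lowest, 7.22 at the median and 7.39 at the highest in alb-SREBP-1a∆P, and 7.44, 7.56 and 7.99 in C57Bl6, so that these groups did not overlap. It fell by 0.48 ± 0.11 (limma adjusted p = 0.00159). In alb-SREBP-1a its values were 7.22, 7.56 and 7.70. The alb-SREBP-1a∆P livers were lower than that by 0.35 ± 0.10 (limma adjusted p = 0.00814, and from 0.00121 to 0.422 over 13 alternative settings). The alb-SREBP-1a and C57Bl6 livers differed by -0.12 ± 0.09 (limma adjusted p = 0.448), with a 95% interval from -0.32 to 0.07.

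Pias3, which binds STAT3, and Pias4 were called in none of the 3 comparisons of the deposited values. The lowest, median and highest of Pias3 were 6.04, 6.17 and 6.35 in alb-SREBP-1a∆P, 6.05, 6.26 and 6.57 in alb-SREBP-1a, and 5.86, 6.03 and 6.36 in C57Bl6, and all groups overlapped. Its differences were 0.09 ± 0.09 in alb-SREBP-1a∆P against C57Bl6, -0.08 ± 0.08 in alb-SREBP-1a∆P against the alb-SREBP-1a livers and 0.17 ± 0.09 in alb-SREBP-1a against C57Bl6 (limma adjusted p from 0.279 to 0.435). Pias4 measured 6.89, 7.22 and 7.35 in alb-SREBP-1a∆P, 7.18, 7.25 and 7.52 in alb-SREBP-1a, and 6.91, 7.04 and 7.37 in C57Bl6. The nearest to a call was Pias4 in alb-SREBP-1a against C57Bl6, with 0.24 ± 0.08 (limma adjusted p = 0.0624, and from 0.0314 to 0.194 over 12 alternative settings). In alb-SREBP-1a∆P, Pias4 differed by 0.11 ± 0.08 from C57Bl6 and by -0.12 ± 0.08 from alb-SREBP-1a (limma adjusted p = 0.266 and 0.207). Both signs changed with the scaling of the arrays. With each array centred on its median, Pias3 and Pias4 both fell in alb-SREBP-1a∆P against the alb-SREBP-1a livers, by 0.24 and 0.29 (limma adjusted p = 0.0199 and 0.00776, with ranges from 0.0199 to 0.667 and from 0.00776 to 0.709 over 13 alternative settings).

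Among the proteases, Senp5 was called in all 3 comparisons. Senp5 works in the nucleolus and at mitochondria, mainly on SUMO-2 and SUMO-3. Its lowest, median and highest levels were 6.24, 6.60 and 6.99 in alb-SREBP-1a∆P, 6.58, 7.06 and 7.19 in alb-SREBP-1a, and 7.19, 7.29 and 7.47 in C57Bl6. All 8 alb-SREBP-1a∆P livers and all 8 alb-SREBP-1a livers lay below the lowest C57Bl6 liver, by a narrow margin in alb-SREBP-1a. It fell in alb-SREBP-1a∆P to 60.6% of the level in C57Bl6, by 0.72 ± 0.09 (limma adjusted p = 1.48e-05). In alb-SREBP-1a it fell by 0.31 ± 0.09 against C57Bl6 (limma adjusted p = 0.0330). That call ended when each array was centred on its median (limma adjusted p = 0.0677, and from 0.00817 to 0.0678 over 12 alternative settings). Senp5 also fell in alb-SREBP-1a∆P against the alb-SREBP-1a livers, by 0.42 ± 0.11 (limma adjusted p = 0.00694, and from 0.000879 to 0.134 over 13 alternative settings). There 3 of the 8 alb-SREBP-1a∆P livers lay below every alb-SREBP-1a liver.

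Groups without any overlap were found for 1 of 9 members, Senp5, in alb-SREBP-1a against C57Bl6, where 3.07% of all probe sets had none. In alb-SREBP-1a∆P, set against C57Bl6, they were found for 3 of 9, Senp5, Senp6 and Pias2, where 11.8% of all probe sets had none. With alb-SREBP-1a∆P set against alb-SREBP-1a they were found for 0 of 9, where 5.95% of all probe sets had none.

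Senp2 had the largest difference of the 9 members in both comparisons of alb-SREBP-1a∆P. It processes and removes all SUMO forms and is found largely at the nuclear pore. Its lowest, median and highest levels were 5.56, 5.94 and 6.33 in alb-SREBP-1a∆P, 6.08, 6.68 and 6.81 in alb-SREBP-1a, and 6.25, 6.68 and 7.11 in C57Bl6. In alb-SREBP-1a∆P, 7 of 8 livers lay below every C57Bl6 liver and 5 of 8 below every alb-SREBP-1a liver. It fell to 59.0% of the level in C57Bl6, by 0.76 ± 0.13 (limma adjusted p = 0.000131), and to 64.6% of the level in alb-SREBP-1a, by 0.63 ± 0.12 (limma adjusted p = 0.000831). Senp2 lies in level class 7, whose median differences were -0.04 and -0.08. In alb-SREBP-1a against C57Bl6 the difference was -0.13 ± 0.12, with a 95% interval from -0.38 to 0.12 (limma adjusted p = 0.542).

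Senp1, the close relative of Senp2 that processes SUMO precursors and frees SUMO from nuclear proteins, was the other member of that level class to fall. It measured 5.79 at the lowest, 5.90 at the median and 6.34 at the highest in alb-SREBP-1a∆P, 5.98, 6.44 and 6.59 in alb-SREBP-1a, and 6.24, 6.31 and 6.63 in C57Bl6. In alb-SREBP-1a∆P all livers except replicate 1 lay below every C57Bl6 liver. It fell there by 0.41 ± 0.09 against C57Bl6 (limma adjusted p = 0.000893) and by 0.47 ± 0.10 against alb-SREBP-1a (limma adjusted p = 0.00163). The alb-SREBP-1a and C57Bl6 livers differed by 0.06 ± 0.09, with a 95% interval from -0.13 to 0.25 (limma adjusted p = 0.750).

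Senp6, which takes apart chains of SUMO, was lower in every alb-SREBP-1a∆P liver than in any C57Bl6 liver. Its lowest, median and highest levels were 7.89, 8.16 and 8.23 in alb-SREBP-1a∆P, 8.12, 8.51 and 8.65 in alb-SREBP-1a, and 8.36, 8.54 and 8.74 in C57Bl6. Senp6 fell by 0.44 ± 0.08 in alb-SREBP-1a∆P against C57Bl6 (limma adjusted p = 0.000210). Against alb-SREBP-1a it fell by 0.35 ± 0.08 (limma adjusted p = 0.00326, and from 0.000428 to 0.479 over 13 alternative settings). The fall against alb-SREBP-1a is close to the median of -0.31 in level class 9, where Senp6 lies. The alb-SREBP-1a and C57Bl6 livers differed by -0.09 ± 0.08 (limma adjusted p = 0.567).

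Senp3, the nucleolar relative of Senp5, moved least among the proteases in both comparisons of alb-SREBP-1a∆P. It measured 7.01 at the lowest, 7.29 at the median and 7.64 at the highest in alb-SREBP-1a∆P, 7.29, 7.63 and 7.99 in alb-SREBP-1a, and 7.23, 7.56 and 7.67 in C57Bl6. Of the 8 alb-SREBP-1a∆P livers, 4 lay below every C57Bl6 liver and the other 4 within the C57Bl6 range. Against alb-SREBP-1a, Senp3 fell by 0.32 ± 0.11 (limma adjusted p = 0.0342), about the median of its level class. The call ended without replicate 4 of alb-SREBP-1a∆P (limma adjusted p = 0.0562) and without replicates 1 and 2 of alb-SREBP-1a (0.0711), with a range from 0.00376 to 0.786 over 13 alternative settings. Against C57Bl6 the difference was -0.21 ± 0.11 in alb-SREBP-1a∆P (limma adjusted p = 0.102) and 0.10 ± 0.09 in alb-SREBP-1a (limma adjusted p = 0.511).

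**Figure D2:**
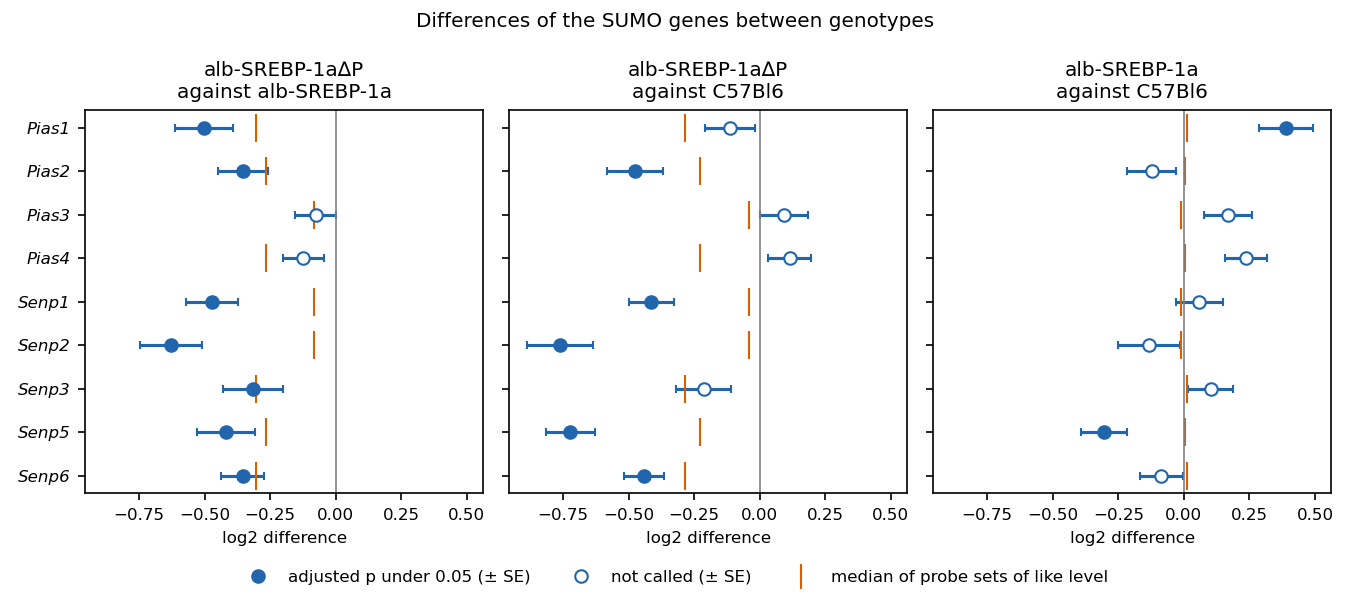
Log2 difference ± SE (horizontal axis) of each measured gene in the 3 comparisons, filled where the limma adjusted p was under 0.05, with the median difference of probe sets of like mean level as an orange bar. In alb-SREBP-1a∆P, Senp1, Senp2, Senp5, Senp6 and Pias2 lie left of their bars in both comparisons, Senp6 only slightly against alb-SREBP-1a. Senp3 lies at its bar against alb-SREBP-1a, and Pias3 and Pias4 lie right of zero against C57Bl6.

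By role, the 5 SENP proteases had a median difference of -0.44 in alb-SREBP-1a∆P against C57Bl6, with 4 that fell, and the 4 PIAS ligases one of -0.01, with 1 that fell. With alb-SREBP-1a∆P set against alb-SREBP-1a the medians were -0.42, with 5 of 5 proteases that fell, and -0.24, with 2 of 4 ligases that fell. In alb-SREBP-1a against C57Bl6 they were -0.09 with 1 protease that fell, and 0.20 with 1 ligase that rose. Over all probe sets 20.2% and 21.4% were called lower in alb-SREBP-1a∆P against C57Bl6 and against alb-SREBP-1a. In level classes 7 to 9, where both roles lie, 28.5% to 53.3% and 29.3% to 62.3% were called lower. The class medians were -0.04 to -0.29 and -0.08 to -0.31. In alb-SREBP-1a against C57Bl6, 6.77% of all probe sets were called higher and 3.98% lower. The difference between the roles was not tested.

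The scaling of the arrays bears on how many of these falls are called. With the arrays put on 1 distribution by quantile normalization, 4 members fell in alb-SREBP-1a∆P against the alb-SREBP-1a livers, where 4898 of 35556 probe sets were called lower. Cyclic loess, which removes trends with level, left 2 that fell there, Senp1 and Senp2, with 3681 probe sets called lower. With each array centred on its median, 9 of 9 fell there, with 11410 called lower. Under that centring 7 fell in alb-SREBP-1a∆P against C57Bl6, where Senp3 and Pias1 joined the 5 and 10194 probe sets were called lower. As deposited, 7607 probe sets were called lower against alb-SREBP-1a and 7193 against C57Bl6. The 5 members that fell in alb-SREBP-1a∆P against C57Bl6 kept that call under all 11 alternative settings, with adjusted p of at most 0.0445. Of these settings, 1 repeats the deposited result. For Senp6 and Pias2 the difference shrank there to -0.17 and -0.24 under cyclic loess. Set against alb-SREBP-1a, cyclic loess left Senp6 at -0.07 and Pias2 at -0.09 in alb-SREBP-1a∆P, where both had been -0.35 as deposited. Pias4 rose in alb-SREBP-1a∆P against C57Bl6, by 0.24 (limma adjusted p = 0.0355) with quantile normalization and by 0.33 (limma adjusted p = 0.00506) with cyclic loess, in a range from 0.00506 to 0.691.

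Of the activating enzyme, the partner subunit of Uba2 was measured. Sae1 averaged 6.90 ± 0.15 in alb-SREBP-1a∆P, 7.24 ± 0.21 in alb-SREBP-1a and 7.41 ± 0.10 in C57Bl6 (SD, n = 8 each). It fell in alb-SREBP-1a∆P by 0.52 ± 0.08 against C57Bl6, with every liver below every C57Bl6 liver, and by 0.35 ± 0.10 against alb-SREBP-1a (limma adjusted p = 4.74e-05 and 0.00856). Of 9 listed activating enzymes of ubiquitin-like proteins, Sae1 included, 7 were measured. In alb-SREBP-1a∆P, 5 fell and 0 rose against C57Bl6, and 5 fell and 0 rose against alb-SREBP-1a, while 0 were called in alb-SREBP-1a against C57Bl6. Over all probe sets 20.2% and 21.4% were called lower in the 2 comparisons of alb-SREBP-1a∆P. Of these 7 genes, 3 lie in level class 7 and 4 in classes 8 and 9, for which the shares are given above. Nae1 and Uba3, the subunits that activate NEDD8, were lower by 0.57 ± 0.10 and 0.65 ± 0.12 in alb-SREBP-1a∆P against C57Bl6, and by 0.69 ± 0.11 and 0.55 ± 0.12 against alb-SREBP-1a (limma adjusted p from 0.000162 to 0.00161). The enzymes on this list other than Sae1 act on other modifiers than SUMO.

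Of 22 other genes of the SUMO pathway, 19 were measured. Against C57Bl6, 13 fell, 1 rose and 5 were not called in alb-SREBP-1a∆P, with a median of -0.30, against 20.2% of all probe sets called lower and 27.0% called higher. Of the 19, 14 lie in level classes 8 to 10, where 46.1% to 53.3% were called lower. Those with the smallest p were Desi2, Sumo2, Ranbp2 and Sae1. Desi2, of the desumoylating isopeptidase family, averaged 6.29 ± 0.28 in alb-SREBP-1a∆P and 7.60 ± 0.35 in C57Bl6 (SD, n = 8 each) and fell by 1.32 ± 0.15 (limma adjusted p = 4.22e-06). Sumo2, one of the modifiers themselves, fell by 0.58 ± 0.07 (limma adjusted p = 4.82e-06), and all 5 of its probe sets fell, by 0.53 to 0.64. Sumo2 has near-identical copies in the genome, so its probe sets may share signal. Ranbp2, a ligase of the nuclear pore, fell by 0.54 ± 0.08 (limma adjusted p = 3.38e-05). Zmiz1 was not called by its brightest probe set. Another of its probe sets rose, by 0.35 (limma adjusted p = 0.0151), and the last, at 0.12, was not called.

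Against alb-SREBP-1a, 12 of these genes fell in alb-SREBP-1a∆P, 0 rose and 7 were not called, with a median of -0.32, against 21.4% called lower over all probe sets and 46.1% to 62.3% in level classes 8 to 10. Nsmce2, the ligase of the SMC5/6 complex, averaged 6.37 ± 0.27 in alb-SREBP-1a∆P and 7.24 ± 0.29 in alb-SREBP-1a (SD, n = 8 each), without overlap, and fell by 0.87 ± 0.14 (limma adjusted p = 0.000262). Zfp451, a ligase that extends SUMO chains, fell by 0.42 ± 0.07, Pml, the scaffold of nuclear bodies, by 0.41 ± 0.07, and Senp7, a relative of Senp6, by 0.53 ± 0.11 (limma adjusted p from 0.000546 to 0.00122). Pml was one of the 3 genes that had risen in alb-SREBP-1a. Zmiz1 counts among the 12 by its brightest probe set, at -0.38, and its other probe sets, at -0.22 and 0.17, were not called.

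Of the 19, 3 rose, 3 fell and 13 were not called in alb-SREBP-1a against C57Bl6, with a median of -0.003, against 6.77% of all probe sets called higher and 3.98% called lower. Desi2 fell by 0.81 ± 0.15 (limma adjusted p = 0.00151), Uspl1, another SUMO protease, by 0.33 ± 0.09 (0.0284), and Sumo2 by 0.26 ± 0.08 (0.0391). Zmiz2, a PIAS-like protein, rose by 0.35 ± 0.08 (limma adjusted p = 0.0104), and it also rose in alb-SREBP-1a∆P against C57Bl6, by 0.38 ± 0.09 (limma adjusted p = 0.00287). Pml rose by 0.34 ± 0.10 and the related Zmiz1 by 0.38 ± 0.11 (limma adjusted p = 0.0320 and 0.0340). The 3 probe sets of Zmiz1 gave 0.56, 0.38 and -0.06 here and do not tell the same.

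**Figure D3:**
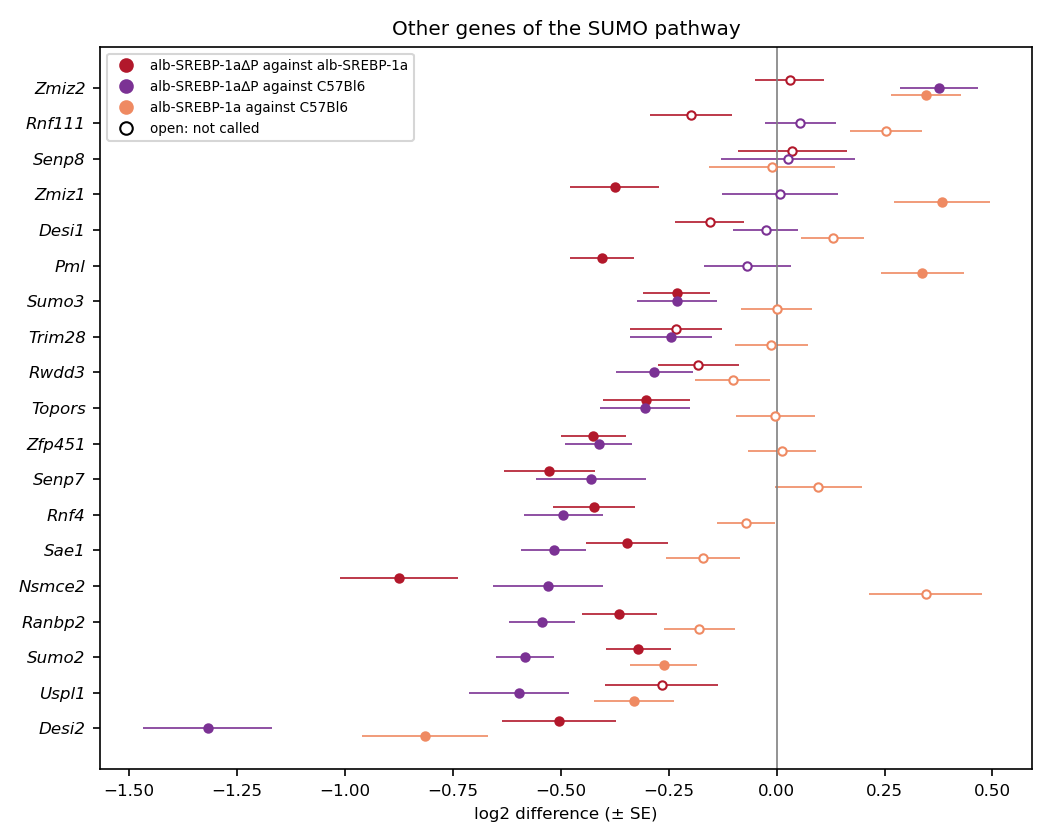
Log2 difference ± SE (horizontal axis) of the 19 measured other genes listed with the SUMO pathway in the 3 comparisons. They stand in the order of alb-SREBP-1a∆P against C57Bl6, open where the limma adjusted p was not under 0.05. Senp8, a NEDD8 protease, is among the 19. Desi2 has the largest fall against C57Bl6 in both transgenic genotypes, and Nsmce2 the largest in alb-SREBP-1a∆P against the alb-SREBP-1a livers.

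Some of the measured members varied together from liver to liver. The values were set against each other after the mean of each genotype was taken away, over 24 arrays, which share hybridization and scaling, so these correlations are descriptions. Of all 36 pairs of the measured members, 25 had a positive Pearson's r, and the median was 0.22. Senp1, Senp2, Senp5, Senp6, Pias1 and Pias2 were grouped by these same values, so their positive signs follow from that choice. They form 15 pairs, with r from 0.36 to 0.84 and a median of 0.60. Senp2 and Senp6 were closest, with 0.84, followed by Senp2 and Pias2 with 0.80. Within single genotypes the median of the 15 pairs was 0.33 in alb-SREBP-1a∆P, 0.85 in alb-SREBP-1a and 0.78 in C57Bl6 (8 arrays each). Of the 15 pairs, 4 were negative within alb-SREBP-1a∆P, down to -0.19, and 0 within each of the other genotypes. Replicate 5 of alb-SREBP-1a, low for most of these genes, is one of those arrays.

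Pias3 and Pias4 stood outside this set, with median r over the other 8 members of -0.07 and -0.08. The lowest pair of all was Senp5 with Pias3, at -0.54, and it was negative within alb-SREBP-1a∆P (-0.79), alb-SREBP-1a (-0.34) and C57Bl6 (-0.76). Senp5 with Pias4 gave 0.85 within alb-SREBP-1a∆P, 0.47 within alb-SREBP-1a and -0.61 within C57Bl6, so that pair had no common sign. Senp3 went mainly with Pias1, at 0.59.

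**Figure D4:**
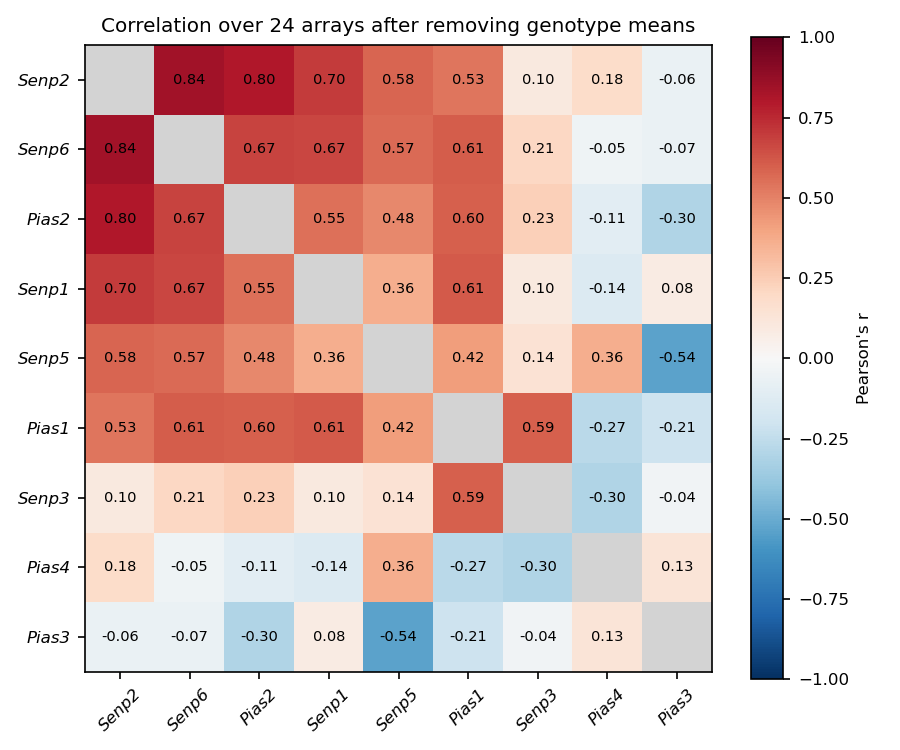
Pearson's r between each pair of the 9 measured genes over 24 arrays after the genotype means were removed, from -1 (blue) to 1 (red), with the diagonal in grey. Senp2, Senp6, Pias2, Senp1, Senp5 and Pias1 were placed side by side because of these values. They form a red square, with values from 0.36 to 0.84, and Senp3, Pias3 and Pias4 lie outside it.

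Over all 24 arrays with genotype means kept, the gene most like each member among 19938 genes was looked up, by Pearson's r. For Senp6 it was Senp2 (r = 0.95, and 0.84 without genotype means). For Senp2 it was Rrm1, a subunit of ribonucleotide reductase (0.96 and 0.91), for Senp1 it was Mctp2 (0.95 and 0.86), and for Senp5 it was Foxred1, an assembly factor of respiratory complex I (0.93 and 0.72). For Senp3 it was Gpsm2, which orients the mitotic spindle (0.86 and 0.79), and next came Nsmce2 (0.83 and 0.77). For Pias1 it was the splicing factor U2af1 (0.90 and 0.77), for Pias2 the proteasome adaptor Ecpas (0.95 and 0.87), for Pias3 Atp5g2, a subunit of ATP synthase (0.72 and 0.71), and for Pias4 the autophagy protein Atg2a (0.86 and 0.77). Pias3 had the lowest of these values.

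Hepatocyte markers were high in all 3 genotypes, and markers of other liver cells moved with genotype. The mean log2 level of the 6 measured of 8 hepatocyte markers was 12.9 to 13.1 in alb-SREBP-1a∆P, 13.1 to 13.3 in alb-SREBP-1a and 13.2 to 13.3 in C57Bl6, and each of these 6 fell, by 0.16 to 0.44, with alb-SREBP-1a∆P set against C57Bl6. All 6 lie in level class 10, whose median in that comparison was -0.20, with 47.2% called lower, and the median of the 6 was -0.23. Of 4 neutrophil markers, 3 rose in alb-SREBP-1a∆P against both other genotypes, and their mean level was 5.20 to 5.52 in alb-SREBP-1a∆P, 4.89 to 5.16 in alb-SREBP-1a and 4.80 to 5.18 in C57Bl6. S100a8 and Ly6g, 2 of these 3, lie in level classes 2 and 3, whose medians against C57Bl6 were 0.32 and 0.27 in alb-SREBP-1a∆P, with 43.6% and 40.5% called higher. They rose there by 0.42 and 0.44, and S100a9, in class 7, by 0.49. Of 6 Kupffer cell and macrophage markers, 3 rose in alb-SREBP-1a∆P and 3 in alb-SREBP-1a against C57Bl6, at mean levels of 7.56 to 8.24, 7.57 to 8.30 and 7.29 to 7.82 in alb-SREBP-1a∆P, alb-SREBP-1a and C57Bl6. Of 5 measured lymphocyte markers, 2 rose in alb-SREBP-1a∆P and 1 in alb-SREBP-1a against C57Bl6, at mean levels of 4.81 to 5.26, 4.91 to 5.40 and 4.78 to 4.97 in alb-SREBP-1a∆P, alb-SREBP-1a and C57Bl6. Of 5 sinusoidal endothelial markers, 1 was called against C57Bl6 in each genotype, lower in alb-SREBP-1a∆P, higher in alb-SREBP-1a. The 6 stellate cell markers, the 4 cholangiocyte markers and the 1 measured erythroid marker had 0 calls against C57Bl6 in either genotype. Apart from the neutrophil markers and Cd3g, markers that rose against C57Bl6 lie in level classes 6 to 10. There 10.5% to 24.0% of probe sets were called higher in alb-SREBP-1a∆P and 3.8% to 14.1% in alb-SREBP-1a. Over all probe sets these shares were 27.0% and 6.77%. Cd3g, the lymphocyte marker that rose in alb-SREBP-1a, lies in class 3, with 2.76% called higher. Clec4g, the endothelial marker that fell in alb-SREBP-1a∆P, lies in class 10, with 47.2% called lower. With alb-SREBP-1a∆P set against alb-SREBP-1a, 3 of 5 endothelial markers (Stab2, Pecam1 and Kdr) and 2 of 6 Kupffer cell and macrophage markers (Adgre1 and Clec4f) fell. So did 2 of 6 stellate cell markers (Lrat and Pdgfrb) and 1 of 6 hepatocyte markers. These lie in level classes 7 to 10, where 29.3% to 62.3% of probe sets were called lower. The stellate cell marker Col1a1 rose, in class 8 with 9.51% called higher. Neutrophil markers that rose lie in classes 2, 3 and 7, with 16.2% to 38.3% called higher. Over all probe sets 21.4% were called lower and 22.8% higher. The lymphocyte, cholangiocyte and erythroid markers had 0 calls there. The part of these cells in the members' differences was not tested.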

How the data were processed

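The members and gene lists were chosen with earlier results of these data known. Liver RNA (150 ng) of each mouse was hybridized to a Mouse Gene 1.0 ST array. As deposited, the values are on the log2 scale, made by the authors with RMA (Affymetrix Expression Console), and cover 35556 probe sets, from 0.833 to 15.0. The RMA step places arrays on a common scale and tends to make differences smaller. Symbols came from the platform annotation: 21789 probe sets carry 1 symbol, 1621 several and 12146 none. Each comparison was fitted as 8 against 8 arrays with limma 3.58.1 in R 4.3.3 (two-sided, moderated variances, Benjamini-Hochberg over all probe sets, threshold 0.05) and was tested on simulated data. A p-value here reflects the spread among these mice, and the number of arrays limits the precision. No array was left out, and the highest correlation between arrays was 0.990. All members were named. Of the other pathway genes, up to 4 per comparison with the smallest p were named. Sumo2 in alb-SREBP-1a against C57Bl6, Zmiz1 in all 3 comparisons, Zmiz2 in alb-SREBP-1a∆P and Nsmce2 beside Senp3 were chosen after their values were seen. Senp8 was named as a NEDD8 protease. Alternatives covered the samples, the replicate block, 3 scalings, a filter, variance models, weights and the methods' t-test. They also count, in each comparison, a mean over all probe sets of a member. Each member had exactly 1, so this setting repeats the deposited result and could not differ from it. Figures were drawn with matplotlib 3.10.9 in Python 3.11.15.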

Additional observations from a re-analysis of the deposited data

Results flagged for a closer look

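In 3 of the 27 groups of 8 livers tested, 1 liver stood far from the others, by the gap to its nearest neighbour as a share of the range of the group. Chance flags about 1 in 20 groups. Senp1 in alb-SREBP-1a∆P had its highest value in replicate 1, at 6.34 with the next at 6.01 (share 0.598). Senp2 in alb-SREBP-1a had its lowest value in replicate 5, at 6.08 with the next at 6.52 (share 0.600), and that array was the lowest of its group for 7 of the 9 members. Senp3 in C57Bl6 had its lowest value in replicate 3, at 7.23 with the next at 7.49 (share 0.598).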

How the results depend on the processing

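Of 324 member values under alternative settings, 294 kept their direction and side of the threshold, 14 lost a call, 9 gained one and 7 changed sign. The 324 and the 294 include the setting that repeats the deposited result and could not differ from it. The sample titles do not say that the replicate numbers pair the mice. Same-numbered mice correlated from -0.12 to 0.28, and 2, 3 and 2 of 8 arrays correlated best with their own number. A batch or litter shared by same-numbered mice was not tested. With the replicate number as a block, the members called were 0 in alb-SREBP-1a against C57Bl6 (2 without the block), where Pias1 and Senp5 had limma adjusted p of 0.0524 and 0.0678, and they were 5 and 6 in alb-SREBP-1a∆P against C57Bl6 and against alb-SREBP-1a. With each array centred on its median, 1 member was called in alb-SREBP-1a against C57Bl6, where 2303 probe sets were called higher and 1144 lower. In alb-SREBP-1a∆P against C57Bl6, Pias3 turned to -0.0684 and Pias4 to -0.0471 under that centring. With quantile normalization 4 members were called in alb-SREBP-1a∆P against the alb-SREBP-1a livers (7 as deposited) and Pias4 turned to 0.0484 there, and Pias1 turned to 0.0584 against C57Bl6. With cyclic loess 2 were called against alb-SREBP-1a and Pias4 turned to 0.112, and against C57Bl6 Pias1 turned to 0.153 and Senp3 to 0.0263. Over all probe sets the median difference of alb-SREBP-1a∆P against C57Bl6 was 0.11 as deposited. With these 3 scalings it was -0.03 (quantile), -0.05 (centred) and -0.004 (loess). Against alb-SREBP-1a it was 0.08 as deposited and, in the same order, -0.02, -0.09 and -0.004. The share of calls that were higher was 57.1% as deposited and 40.6%, 31.9% and 51.2% against C57Bl6, and 51.6%, 41.1%, 23.9% and 52.2% against alb-SREBP-1a. In alb-SREBP-1a against C57Bl6 it was 63.0% as deposited and 51.6% with quantile normalization. The cause was not tested. The methods' t-test at their unadjusted threshold with a fold of 1.5 called 0 members in alb-SREBP-1a against C57Bl6, where it called 3.70% of all probe sets. It called 2 (Senp2, Senp5) in alb-SREBP-1a∆P against C57Bl6 and 1 (Senp2) against alb-SREBP-1a, where it called 16.7% and 11.5% of all probe sets. After Benjamini-Hochberg, with no fold, it called 2, 5 and 7 members in the 3 comparisons. Leaving out replicate 5 of alb-SREBP-1a was chosen after seeing the data.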
